A study of Mus musculus with 6 samples.

Results

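The ribosome of the cytosol is built from a large and a small subunit, each an assembly of ribosomal RNA with many small, mostly basic proteins. The genes of these proteins are scattered over the genome, are transcribed at high levels in growing cells, and have left many processed copies elsewhere. Red cell precursors depend on them: inherited loss of a single copy of several of these genes causes Diamond-Blackfan anemia in humans, and loss of RPS14 contributes to the anemia of the human 5q- syndrome. The genes described here are the cytosolic ribosomal protein genes of the mouse, taken as every row whose symbol begins with Rpl or Rps and a number, together with Rplp0, Rplp1, Rplp2 and Rpsa. Rows named as pseudogenes with -ps (11) and the Rps6k kinases (9) were left out. That gave 86 of the 13007 genes in the table. Of these, 46 encode core proteins of the large subunit and 31 core proteins of the small subunit. The other 9 are paralogs, retrocopies with a gene name of their own, and Rps19bp1, which encodes a partner of the Rps19 protein rather than a subunit. All 86 passed the filter on low counts.

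RNA of sorted bone marrow cells was compared between acute erythroid leukemia (AEL, 3 libraries) and normal erythroid precursors (NC, 3 libraries) of C57BL/6 mice. The AEL cells were sorted as GFP-positive cells after transduction with ERG, which encodes a transcription factor of the ETS family, and carry the genotype label Trp53-/-. The NC cells are labelled wild type and were sorted by CD71, which takes up iron-loaded transferrin, and by Ter119, found on the red cell surface. Mutations of SETBP1 and ASXL1 stand in the source label of all 6 libraries, and for NC this conflicts with the wild-type label. Equal numbers of cells were sorted per sample, and libraries were made from poly-A RNA. No age is given, and the labels call the replicates biological without saying whether each came from a separate animal. The p-values reflect only how these samples spread.

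Library totals ran from 8171676 to 9945330 counts. The AEL libraries varied more among themselves, with a biological coefficient of variation of 44.4%, against 9.16% in the NC libraries. Trp53 stood at 1171, 1092 and 976 CPM (counts scaled to library size) in the libraries labelled Trp53-/- and at 177, 175 and 162 CPM in NC. Gene-level counts do not show which exons the reads came from, so this does not check the deletion. Summed over 11 erythroid marker genes, AEL libraries held 4513 to 13371 CPM and NC libraries 51946 to 64523 CPM, and 9 of the 11 fell in AEL. These and the following marker sums were scaled by library totals alone. Marker sums of macrophages, neutrophils, B cells and T and NK cells were also lower in every AEL library, and those of megakaryocytes overlapped. The 8 macrophage markers summed to 2.58, 28.6 and 11.7 CPM in AEL replicates 1 to 3 and 2474 to 2818 CPM in NC. Spic stood at 0 in all AEL libraries. The 10 neutrophil markers summed to 18.03, 1094 and 125 CPM in AEL replicates 1 to 3 and 7076 to 8034 CPM in NC. Both sums were thus highest in AEL replicate 2 among the AEL libraries. The 7 B cell markers gave 1.29, 1.61 and 2.21 CPM in AEL replicates 1 to 3 and 179 to 209 CPM in NC. The 3 detected T and NK cell markers gave 0.234, 0.692 and 0.905 CPM in AEL and 43.0 to 47.9 CPM in NC. The 5 megakaryocyte markers gave 43.9 to 267 CPM in AEL and 70.4 to 91.0 CPM in NC, and they were split. Gp1bb and Ppbp stood at 0 in AEL, Gp9 was lower and Pf4 overlapped. Itga2b went the other way, with every AEL library above every NC library (log2 fold change of AEL over NC 2.51, edgeR adjusted p = 0.0283). All results below compare cell populations that differ in these ways, and the part of the sorted cells in them was not tested.

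Reads of a ribosomal protein gene can match its processed copies almost as well as the gene itself, so the sequences of 5 genes and 5 of their copies are shown before the values that depend on them. Each pair gives 60 bases of coding sequence from the GENCODE M21 transcripts (GRCm38). Capitals mark the bases at which gene and copy differ. The stretch shown is the one holding most differences, or the first 60 coding bases where there are none. Rpl26 (chr11:68901583-68906989, plus strand) and the processed pseudogene Gm15772 (chr5:3236431-3236868, plus strand) differ at 2 of 435 aligned coding bases.
Rpl26: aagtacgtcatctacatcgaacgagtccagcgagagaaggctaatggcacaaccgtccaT
Gm15772: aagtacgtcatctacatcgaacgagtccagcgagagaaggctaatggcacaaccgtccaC
Rps23 (chr13:90922958-90924950, plus strand) matches Gm5148 (chr3:37714190-37724490, minus strand) at all 398 aligned bases. The match lies on the strand opposite to the annotated Gm5148 transcript, and the copy is printed here in the sense of Rps23.
Rps23: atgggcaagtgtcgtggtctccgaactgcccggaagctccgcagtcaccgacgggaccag
Gm5148: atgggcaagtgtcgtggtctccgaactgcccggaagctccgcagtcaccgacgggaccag
Rps27 (chr3:90212522-90213651, minus strand) and the retrocopy Rps27rt (chr9:114982366-114982739, minus strand) are identical over all 252 coding bases.
Rps27: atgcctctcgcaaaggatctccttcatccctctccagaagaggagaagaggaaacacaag
Rps27rt: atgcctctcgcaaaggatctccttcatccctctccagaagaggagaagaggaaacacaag
Rps25 (chr9:44407139-44410427, plus strand) and Gm2225 (chr8:78486034-78486410, minus strand) differ at 5 of 374 aligned bases.
Rps25: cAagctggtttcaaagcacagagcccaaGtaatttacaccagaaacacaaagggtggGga
Gm2225: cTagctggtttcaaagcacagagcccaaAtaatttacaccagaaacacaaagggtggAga
Rpl14 (chr9:120571444-120574654, plus strand) and Rpl14-ps1 (chr7:45324965-45325617, plus strand) differ at 4 of 648 aligned bases.
Rpl14: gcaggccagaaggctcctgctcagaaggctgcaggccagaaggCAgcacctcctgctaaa
Rpl14-ps1: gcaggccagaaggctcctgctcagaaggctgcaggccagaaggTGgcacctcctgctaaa
How the authors' counting divided reads between such rows is not given in the sources used here, nor is the strandedness of the libraries or the counting.

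Ribosomal protein genes were seldom higher in AEL, while the share that was lower was close to that of all genes. By edgeR's quasi-likelihood test with Benjamini-Hochberg adjustment over 12427 genes, 25 of the 86 genes (29.1%) were called lower in AEL, at adjusted p under 0.05. Of all genes tested, 29.0% were called lower, so the count alone does not set the ribosomal protein genes apart. Only Rpl10a and Rpl12 (2.33% of the 86) were called higher, against 23.9% of all genes. The median log2 fold change of AEL over NC was -0.37 over the 86 genes and -0.05 over all genes. Sorted bulk RNA cannot tell fewer cells of a type apart from less RNA per cell. With library totals alone as scaling, 9 were called higher and 20 lower, beside 3800 (30.6%) higher and 3081 (24.8%) lower of all genes; with the reported TMM scaling, all genes split into 2965 higher and 3599 lower. Quantile normalization with limma gave 12 higher and 20 lower (32.5% and 26.0% of all genes), limma on log2(CPM + 1) 3 and 28 (24.3% and 31.6%), and DESeq2 3 and 30 (25.0% and 30.3%). Library totals and quantile normalization moved the median of all genes to 0.14 and 0.11, and that of the 86 genes to -0.19 and -0.12. Without AEL replicate 1, 11 were called higher and 22 lower. The higher calls numbered 1 without NC replicate 1 and 0 without NC replicate 2 or NC replicate 3, and all-gene calls fell to 1780 to 1812 lower and 1672 to 1776 higher when any NC library was left out. Of the 27 called genes, 16 kept their call whichever single library was left out.

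**Figure D1:**
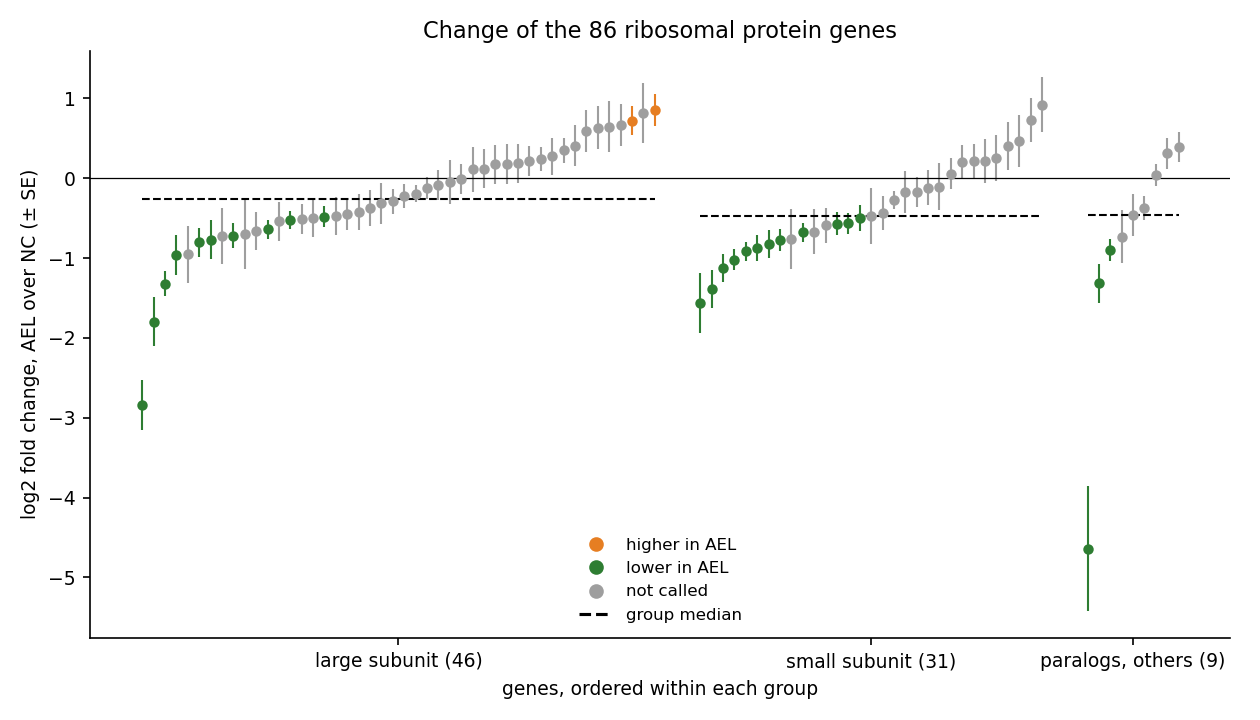
Log2 fold change of AEL over NC (vertical axis, ± SE) for each of the 86 genes, ordered within the large subunit, small subunit and remaining genes (horizontal axis), with calls at adjusted p under 0.05 in colour and group medians dashed. Medians lie at -0.25 for 46 large subunit genes and -0.47 for 31 small subunit genes, and 2 large subunit genes are called higher.

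Summed levels were lower in AEL for both subunits, with ratios of AEL to NC of 0.623 for the large and 0.611 for the small. Core large subunit genes summed to 9092, 13082 and 8794 CPM in AEL replicates 1 to 3 and 18144, 16582 and 14997 CPM in NC. Core small subunit genes summed to 6893, 8222 and 6989 CPM in AEL and 12977, 12335 and 10882 CPM in NC. In both, every AEL library lay below every NC library on this scale. An exact test of 3 against 3 libraries gave p = 0.1 for each subunit sum and for the sum over all 86 genes. That is the smallest p this test can reach, so it cannot pass the threshold used for single genes and does not decide whether the sums differ. For the large subunit with library totals alone, the exact test gave p = 0.2. With library totals alone the large subunit sums overlapped, at 9459, 13903 and 9667 CPM in AEL and 17221, 15534 and 13877 CPM in NC, while the small subunit sums did not. The sum over all 86 genes averaged 19108 ± 3251 CPM over the AEL and 30682 ± 2866 CPM over the NC libraries (SD, n = 3 each), a ratio of 0.623. As a share of all counts, which needs no TMM factor, the 86 genes took 1.80%, 2.43% and 1.89% in AEL and 3.17%, 2.90% and 2.56% in NC. By gene, 10 of 46 large subunit genes (21.7%, and 6 without NC replicate 2) and 12 of 31 small subunit genes (38.7%) were lower, against 29.0% of all genes, and the difference between the subunits was not tested. Log2 fold changes ran from -2.84 to 0.85 in the large subunit and from -1.56 to 0.92 in the small subunit. AEL lay wholly below NC for 36 of the 86 genes and wholly above for 12, where 36.1% and 29.9% of all genes did.

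The stalk of the large subunit recruits the elongation factors, and the RNA of the genes for its 4 proteins changed unequally. Rplp1 (chr9:61913284-61914542), 1 of the paired acidic proteins at its tip, had 377, 783 and 397 CPM in AEL and 2062, 1750 and 1598 CPM in NC. All AEL values were below all NC values, and the log2 fold change was -1.80 (SE 0.31, edgeR adjusted p = 0.00331). Its partner Rplp2 (chr7:141447370-141451585) had 108, 102 and 81.0 CPM in AEL and 182, 155 and 142 CPM in NC (log2 fold change -0.72, SE 0.16, edgeR adjusted p = 0.00837). Rplp0 (chr5:115559467-115563727), the scaffold that holds both, stood at 1400, 2147 and 1218 CPM in AEL and 2282, 2177 and 1927 CPM in NC. The groups overlapped through AEL replicate 2, and the test did not pass (log2 fold change -0.42, edgeR adjusted p = 0.157). Without AEL replicate 2 it passed, at -0.64 (edgeR adjusted p = 0.00862). Rpl12 (chr2:32961559-32965345), at the base of the stalk, rose to 33.2, 42.9 and 45.6 CPM in AEL libraries, against 26.17, 25.04 and 22.57 CPM in NC. This call (log2 fold change 0.72, SE 0.18, edgeR adjusted p = 0.0143) did not pass without any one of the NC libraries (edgeR adjusted p = 0.0606 without NC replicate 1, 0.0716 without NC replicate 2 and 0.0776 without NC replicate 3), nor with replicate number as a block (0.0524).

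Elsewhere in the large subunit, the lowest fold change was that of Rpl26, which encodes a protein near the exit tunnel. Its row held 10.6, 22.5 and 14.9 CPM in AEL and 137, 116 and 89.9 CPM in NC (log2 fold change -2.84, SE 0.31, edgeR adjusted p = 0.000716). That value does not hold for gene and copy together, as given with the copies further on. Rpl41 (chr10:128548114-128549305), a very short basic peptide, had 713, 722 and 535 CPM in AEL and 1748, 1666 and 1510 CPM in NC. The groups were far apart relative to their spread (log2 fold change -1.32, SE 0.16, edgeR adjusted p = 0.000941). Rpl31, also at the tunnel exit, had 6.19, 8.68 and 7.32 CPM in AEL and 14.3, 15.7 and 13.2 CPM in NC (log2 fold change -0.96, SE 0.25, edgeR adjusted p = 0.0164). This call was lost without NC replicate 1 or NC replicate 2 (edgeR adjusted p = 0.0621 and 0.0741) and under the replicate block (0.0544). Rpl8 (chr15:76904078-76906314), which lies near the catalytic centre, fell by 0.64 on the log2 scale (SE 0.12, edgeR adjusted p = 0.0052). The remaining lower calls of the large subunit, Rpl6, Rpl13a, Rpl32 and Rpl36, had log2 fold changes of -0.52, -0.77, -0.48 and -0.80. Of these, Rpl32 and Rpl13a kept the call in only 1 of 6 fits that left out a library, Rpl6 lost it without AEL replicate 1 and Rpl36 without NC replicate 2.

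At the other end, Rpl10a (chr17:28328471-28331033), the protein of the L1 stalk, rose to 89.5, 147 and 129 CPM in AEL libraries, against 72.8, 68.6 and 60.8 CPM in NC. Every AEL library exceeded every NC library (log2 fold change 0.85, SE 0.20, edgeR adjusted p = 0.011), but the call was lost without NC replicate 2 or NC replicate 3 (0.0565 and 0.0642). Of the 50-base windows of its transcript, 88.1% also occur in other annotated genes, 0 of which are in the table. Adding copies, as done further on, therefore could not test this row. Rpl38, which mouse embryos need for the translation of Hox messengers, had 4.16, 3.69 and 4.57 CPM in AEL and 2.84, 1.42 and 2.76 CPM in NC, with edgeR adjusted p = 0.107. Rpl23a and Rpl17, near the exit tunnel, had log2 fold changes of 0.65 and 0.67 (edgeR adjusted p = 0.126 and 0.074), and AEL replicate 1 was the AEL library that overlapped NC in both. Without that library both passed (edgeR adjusted p = 0.0289 and 0.0182). The Rpl17 row held only 2.05% of the counts of gene and copies in NC, and with the copies added its log2 fold change was -0.28 (edgeR adjusted p = 0.147).

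**Figure D2:**
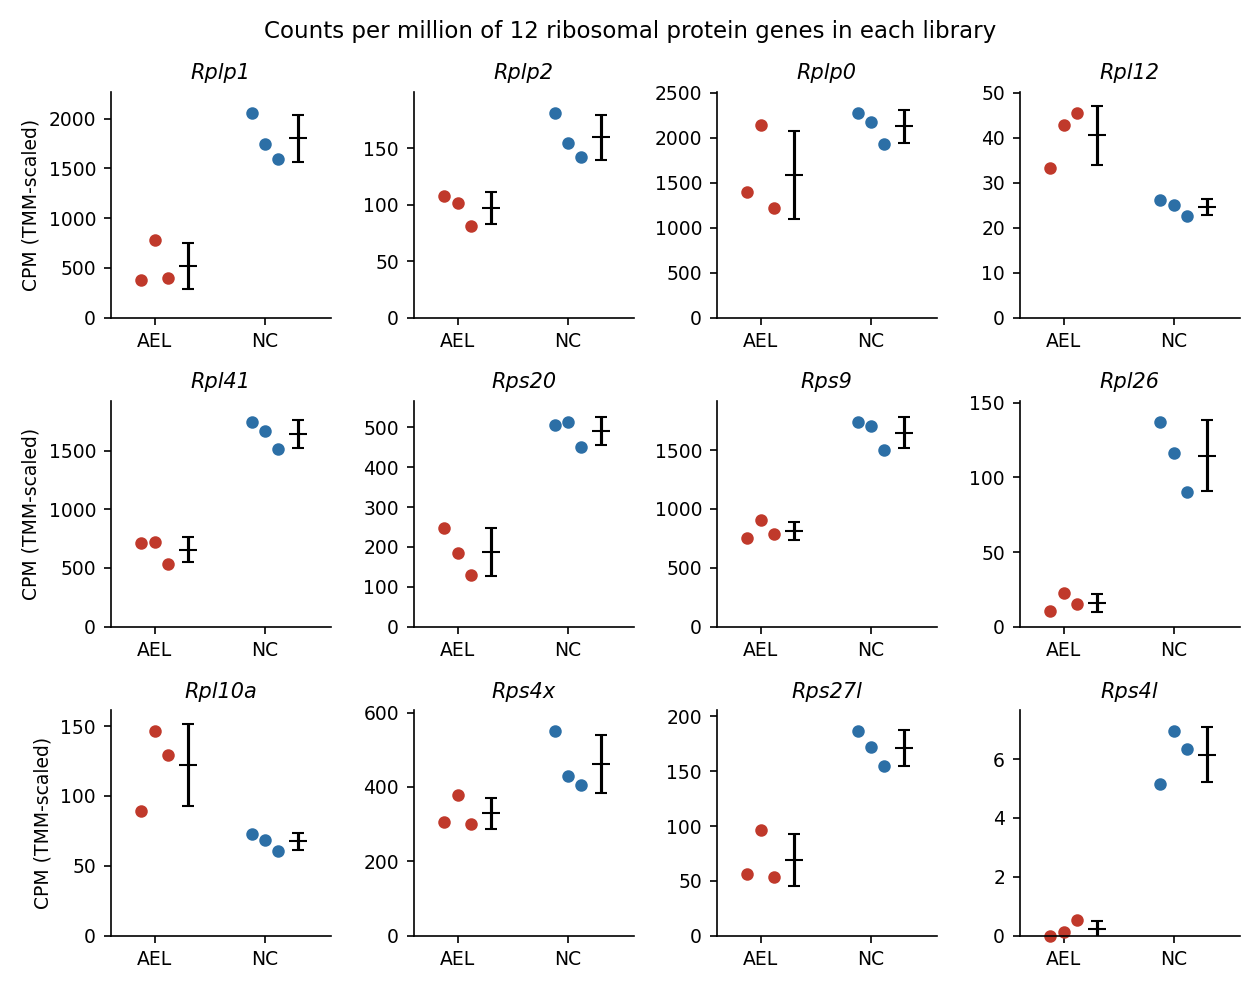
CPM with TMM scaling (vertical axes from 0) in the AEL and NC libraries (points, replicates 1 to 3 from left to right) for 12 genes, with mean ± SD beside them. AEL lies below NC for 9 of the 12, above it for Rpl12 and Rpl10a, and overlaps it for Rplp0, where AEL replicate 2 reaches 2147 CPM.

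In the small subunit, 12 genes were called lower and 0 higher by edgeR. At an unadjusted p under 0.05 it gave 2 higher, and DESeq2 and limma each called 1 higher. Rpsa (chr9:120127689-120132369), also known as the laminin receptor and mutated in human congenital asplenia, had 183, 330 and 111 CPM in AEL and 681, 624 and 536 CPM in NC. The AEL libraries differed among themselves by 1.57 on the log2 scale, yet all were below NC (log2 fold change -1.56, SE 0.37, edgeR adjusted p = 0.0125). Leaving out NC replicate 1 took Rpsa just past the threshold (0.0516). Rps20 (chr4:3831334-3835665), mutated in some human families with colorectal cancer, had 249, 186 and 129 CPM in AEL and 506, 515 and 452 CPM in NC (log2 fold change -1.39, SE 0.24, edgeR adjusted p = 0.00326). Rps9 (chr7:3703993-3706897) had 751, 902 and 784 CPM in AEL and 1742, 1705 and 1499 CPM in NC (log2 fold change -1.02, SE 0.13, edgeR adjusted p = 0.00122). Rps3 fell by 0.92 and Rps2 by 0.68 on the log2 scale (edgeR adjusted p = 0.00134 and 0.00376), and the Rps3 call was lost with quantile normalization. In all 3 the AEL libraries lay within a log2 range of 0.26 of each other and below every NC library. Rps6, the classic substrate of the S6 kinases, fell by 0.82, Rps26 by 0.87 and Rps15 by 0.78. Rps14, the 5q- syndrome gene, had 367, 497 and 479 CPM in AEL and 690, 674 and 628 CPM in NC. Its call (log2 fold change -0.57, SE 0.14, edgeR adjusted p = 0.0154) was lost without NC replicate 1 or NC replicate 2 and with totals alone as scaling (edgeR adjusted p = 0.0585, 0.0559 and 0.076). Rps28 and Rps12 had the highest values of the subunit, log2 fold changes of 0.92 and 0.73. Neither passed (edgeR adjusted p = 0.0565 and 0.0624), and both passed without AEL replicate 1 (0.0144 and 0.00812).

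Few genes of inherited anemia were called. Of 23 Diamond-Blackfan anemia genes (human disease genes), edgeR called 5 (21.7%) lower and 0 higher, against 29.0% and 23.9% of all genes, and the median log2 fold change was -0.11. At an unadjusted p under 0.05 there were 2 higher, limma called 1 and DESeq2 0, and without AEL replicate 1 edgeR called 4 higher. The lower ones were Rps20, Rps26, Rpl8, Rpl26 and Rpl31. Rps19, the gene most often mutated in that disease, had 39.7, 93.6 and 66.9 CPM in AEL and 56.1, 51.4 and 43.8 CPM in NC. AEL replicate 1 was below all NC libraries and the other AEL libraries were above them, and the test did not pass (log2 fold change 0.41, SE 0.30, edgeR adjusted p = 0.293). It passed without AEL replicate 1, at 0.77 (edgeR adjusted p = 0.0184). Rpl5 and Rpl11, which join the 5S ribosomal RNA, were not called. Rpl5 had 20.3, 29.4 and 22.5 CPM in AEL and 19.1, 16.1 and 11.4 CPM in NC, higher in each AEL library (log2 fold change 0.63, SE 0.27, edgeR adjusted p = 0.0855). Without AEL replicate 1 it reached 0.84 and passed (0.0466). Rpl11 had 14.7, 14.5 and 13.2 CPM in AEL and 18.4, 15.5 and 10.1 CPM in NC, with overlapping groups (log2 fold change -0.05, edgeR adjusted p = 0.885).

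Among the 9 paralogs and others, Rps27l, Rps4l and Rpl37rt (33.3%) were called lower and 0 higher by edgeR, against 29.0% and 23.9% of all genes. At an unadjusted p under 0.05 there were 0 higher, and 0 by DESeq2 or limma. Rps27l (chr9:66946086-66949516) had 56.7, 96.2 and 53.5 CPM in AEL and 187, 172 and 154 CPM in NC (log2 fold change -1.32, SE 0.24, edgeR adjusted p = 0.0044). Its partner Rps27 had 6.75, 9.44 and 6.22 CPM in AEL and 9.03, 6.85 and 8.29 CPM in NC, with overlap. The Rps27 row held only 1.12% of the counts of gene and copy in NC. With the retrocopy Rps27rt added, the log2 fold change of Rps27 was -0.46 (edgeR adjusted p = 0.18). Rps4l, an autosomal relative of the X-linked Rps4x, was near the detection limit in AEL at 0, 0.109 and 0.549 CPM, against 5.16, 6.97 and 6.33 CPM in NC (edgeR adjusted p = 0.00318). Rps4l passed the filter of 1 CPM in at least 3 libraries only through NC, so its lower call is not independent of that filter. Rps4x itself had 307, 378 and 301 CPM in AEL and 552, 430 and 406 CPM in NC (log2 fold change -0.49, SE 0.16, edgeR adjusted p = 0.0398). Its call was kept in 1 of the 6 fits that left out a library, that without AEL replicate 2. The large subunit pairs Rpl7 and Rpl7l1, Rpl22 and Rpl22l1, and Rpl36a and Rpl36al held no called gene in the reported fit. Rpl7 was called lower with its copy added (-0.41, edgeR adjusted p = 0.0388). Rpl22l1 was the lowest of these at 7.88, 17.0 and 13.4 CPM in AEL and 25.4, 21.1 and 17.0 CPM in NC (log2 fold change -0.73, edgeR adjusted p = 0.103), and Rpl7l1 the highest at a log2 fold change of 0.39 (edgeR adjusted p = 0.126). Without AEL replicate 2 Rpl7l1 passed as higher, at 0.63 (edgeR adjusted p = 0.0168), as it did with library totals alone (0.58, 0.045). The difference between partners was not tested in any pair.

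Change and level went together across the 77 core genes. Of the 31 core genes with a mean of at least 100 CPM over the 6 libraries, 18 (58.1%) were called lower and 0 higher by edgeR, and the median log2 fold change was -0.68 (0 were higher at an unadjusted p under 0.05, by DESeq2 or by limma). Among all genes at that level, 27.5% were called lower and 29.7% higher, with a median of 0.01. Of the 46 core genes under 100 CPM, 4 (8.70%) were called lower and 2 higher, with a median of 0.09, where 29.4% and 22.3% of all genes at such levels were. Spearman's rho between log2 fold change and log2 mean CPM was -0.58 over the 77 genes, which come from the same 6 libraries and are no independent replicates. The level of a row was itself related to shared sequence: rho was -0.40 between level and the percentage of a transcript's 50-base windows that occur in other annotated genes. Log2 fold change had a rho of 0.35 with that percentage, -0.07 with transcript length and 0.00 with coding length. Of 30 core genes with at most 50% of windows shared, 11 (36.7%) were lower and 1 (3.33%) higher (median -0.53). Of 47 with more, 11 (23.4%) were lower and 1 (2.13%) higher (median -0.09). Over all genes at any level, 29.0% were called lower and 23.9% higher. The boundaries of 100 CPM and 50% were set after the values were seen.

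**Figure D3:**
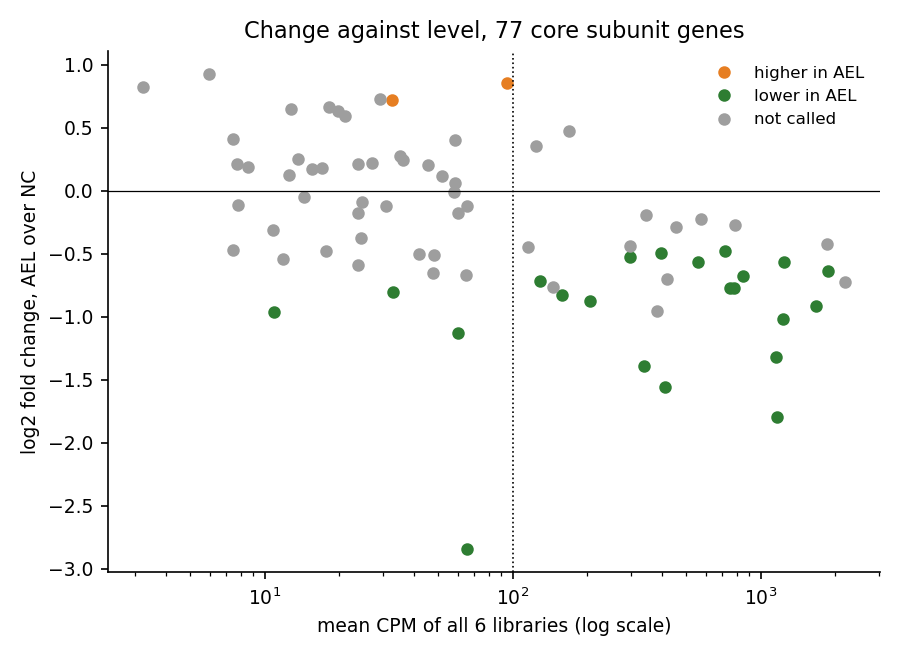
Log2 fold change of AEL over NC (vertical axis) against the mean CPM of all 6 libraries (horizontal axis, log scale) for 77 core genes, with the dotted line at 100 CPM. Of the 31 genes to its right 18 are called lower and 0 higher, and of the 46 to its left 4 are lower and 2 higher.

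Many core genes had copies listed in the table, and summing the counts of gene and copies changed which genes were called. In 34 core families the table also listed 1 or more copies, 43 rows in all, defined as pseudogene, Gm or rt rows with at least 10% of their 50-base windows in the transcript of the gene. In NC the own row of the gene held less than 50% of the counts of its family in 21 families, and less than 10% in 10. The share was 1.04% for Rpl24, 1.12% for Rps27, 1.35% for Rps23 and 1.83% for Rpl37. Gm5148, which carries the Rps23 sequence printed above, held 933, 929 and 908 CPM in AEL and 1792, 1603 and 1408 CPM in NC. It is annotated as protein-coding, and only 14.9% of its 50-base windows occur in Rps23. How much of its row comes from the rest of its transcript is not known. The Rps23 row held 24.3, 29.4 and 22.5 CPM in AEL and 25.3, 17.5 and 23.0 CPM in NC. Thus the copy row changed (log2 fold change -0.79, edgeR adjusted p = 0.00274) where the gene's own row did not pass (0.21, edgeR adjusted p = 0.437). For gene and copy together the log2 fold change was -0.78 (SE 0.13, edgeR adjusted p = 0.00297). Rpl26 went the other way: Gm15772 held 655, 912 and 807 CPM in AEL and 977, 890 and 840 CPM in NC. Summed with it, Rpl26 had 665, 934 and 822 CPM in AEL and 1115, 1006 and 930 CPM in NC, which did not pass (log2 fold change -0.33, edgeR adjusted p = 0.117). The own row of Rpl26 thus took 1.97% of the family's counts in AEL and 11.2% in NC.

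Over the 34 families, the sum of gene and copies was called lower in 15 and higher in 0, where the gene rows alone gave 6 and 0. At an unadjusted p under 0.05 the numbers higher were 0 with copies and 1 without, and for the gene rows alone DESeq2 and limma called 0 higher. The call was gained by 11 families and lost by Rpl26 and Rpl31, and kept by 4. In 10 families the log2 fold change turned from above 0 to below 0 on adding the copies, and in 0 the reverse. Among the turned ones were Rpl37 (-0.87, edgeR adjusted p = 0.00252), Rpl7a (-0.79, 0.00295), Rps23, Rpl24 (-0.52, 0.0086), Rpl28 (-0.41, 0.0226) and Rpl30 (-0.34, 0.0401). Rpl11 with its 2 copies fell by 0.64 on the log2 scale (SE 0.19, edgeR adjusted p = 0.028), whereas its own row did not pass. Of the 43 copy rows, 18 (41.9%) were called lower and 0 higher by edgeR, and 0 were higher at an unadjusted p under 0.05, by DESeq2 or by limma. With copies added, 31 of 77 core genes (40.3%) were lower and 2 higher, against 29.0% and 23.9% of all rows, and the median was -0.47. Gene and copies together took 2.48%, 3.35% and 2.64% of all counts in AEL and 4.34%, 3.99% and 3.53% in NC. This summing was added after the counts had been seen. It left rows without a listed copy as they were. Among these were Rpl10a, Rpl5, Rps12 and Rpl23a, with 88.1%, 93.8%, 90.1% and 85.7% of windows shared with other annotated genes. Which locus the reads came from cannot be read from gene-level counts.

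**Figure D4:**
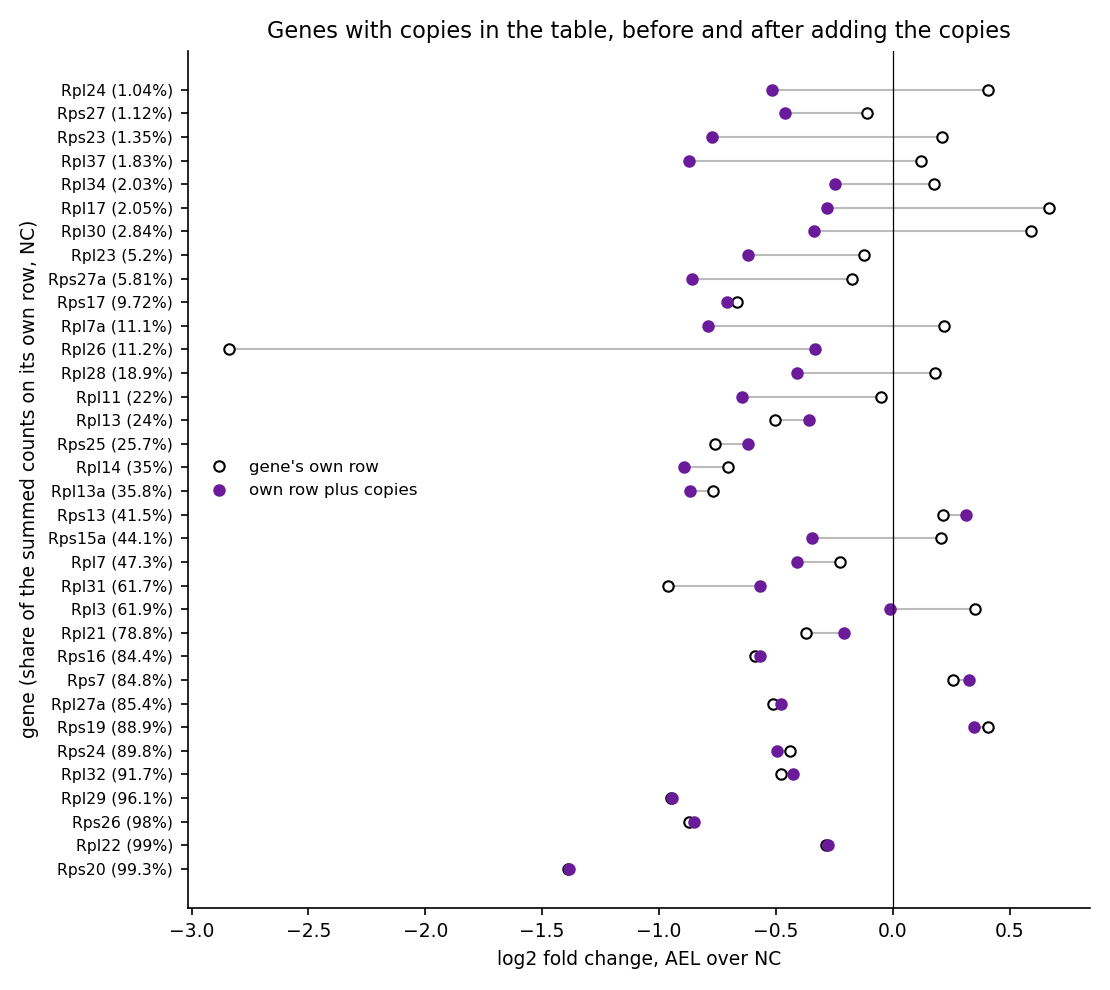
Log2 fold change of AEL over NC (horizontal axis) for 34 core genes with copies in the table, from the gene's own row (open circles) and from the row plus its copies (filled circles), ordered by the share of counts on the own row in NC (in brackets). Circles lie far apart mainly where that share is small, and 10 families pass from above 0 to below it.

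The AEL libraries differed from each other in the genes of chromosome 9. Its 6 core genes, Rpl4, Rpl14, Rpl29, Rplp1, Rps25 and Rpsa, summed to 1980, 4931 and 2271 CPM in AEL replicates 1 to 3 and 7074, 6279 and 5658 CPM in NC. AEL replicate 2 was thus close to the NC range and the other AEL libraries far below it. The 71 core genes elsewhere summed to 14006, 16373 and 13513 CPM in AEL and 24046, 22639 and 20221 CPM in NC. On the log2(CPM + 0.5) scale, the excess of AEL replicate 2 over the mean of AEL replicates 1 and 3 was 1.02 to 1.48 for these 6 genes, which held ranks 1 to 6 among the 86. Its median was 1.24 for them and 0.24 for the core genes of other chromosomes. Genes of chromosome 9 that encode no ribosomal protein shifted too. The 377 of them past 30 Mb had median deviations from NC of -0.82, 0.02 and -0.84 in AEL replicates 1 to 3, where the 6 core genes had -1.54, -0.13 and -1.39. The 77 before 30 Mb had medians of 1.04, 0.04 and 0.38. The boundary of 30 Mb was not among the settings planned beforehand, so this split is a description only. Other chromosomes also shifted in single libraries. Genes without a ribosomal protein product had medians of 0.04, -0.05 and -0.88 on chromosome 19, which carries 0 of the 86 genes, -0.01, -0.68 and -0.70 on chromosome 14, and 0.13, 0.58 and 0.26 on chromosome 3 in AEL replicates 1 to 3. The 2 core genes on chromosome 14 had medians of -0.50, -0.16 and -0.71, and the 3 on chromosome 3 of -0.21, 0.27 and -0.18. Rps27l and Rps27rt, the other members on chromosome 9, showed an excess of 0.80 each.

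Rpl4 (chr9:64173375-64178666), which lines the exit tunnel, had 1002, 2659 and 1278 CPM in AEL and 2898, 2777 and 2470 CPM in NC. Rpl14 had 167, 556 and 237 CPM in AEL and 638, 474 and 451 CPM in NC. In both, AEL replicate 2 fell within or near the NC range, and neither passed with all libraries (edgeR adjusted p = 0.128 and 0.21). Without AEL replicate 2 both passed, at log2 fold changes of -1.18 and -1.29 (edgeR adjusted p = 0.00215 and 0.00486). Rps25, used by several viral internal ribosome entry sites, had 69.0, 178 and 75.5 CPM in AEL and 220, 171 and 155 CPM in NC, the same order of libraries. Copies of these genes on other chromosomes mostly showed the same order. Rpl14-ps1 on chromosome 7 had 297, 765 and 377 CPM in AEL and 1055, 991 and 843 CPM in NC, an excess of 1.19 in AEL replicate 2. Gm2225, the Rps25 copy on chromosome 8, had 193, 538 and 253 CPM in AEL and 450, 403 and 387 CPM in NC, an excess of 1.28, and Gm8210, the Rpl29 copy on chromosome 1, an excess of 1.00. The other Rps25 copy, Gm6988 on chromosome 12, had another order, with deviations of -1.40, -2.16 and -3.50 in AEL replicates 1 to 3. Its excess of 0.30 came from the low value of AEL replicate 3. Gm9385, a copy of Rpl24 that itself lies on chromosome 9, had an excess of 0.14. Copies of core genes that lie on other chromosomes had excesses from -0.45 (Gm7429, of Rpl30) to 1.37 (Gm4705, of Rpl34, at few counts). Rps13-ps4, of Rps13 on chromosome 7, had 1.05. A high excess was thus not particular to copies of chromosome 9 genes. The number of chromosome 9 copies in these cells was not measured here, and its part in these values was not tested.

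**Figure D5:**
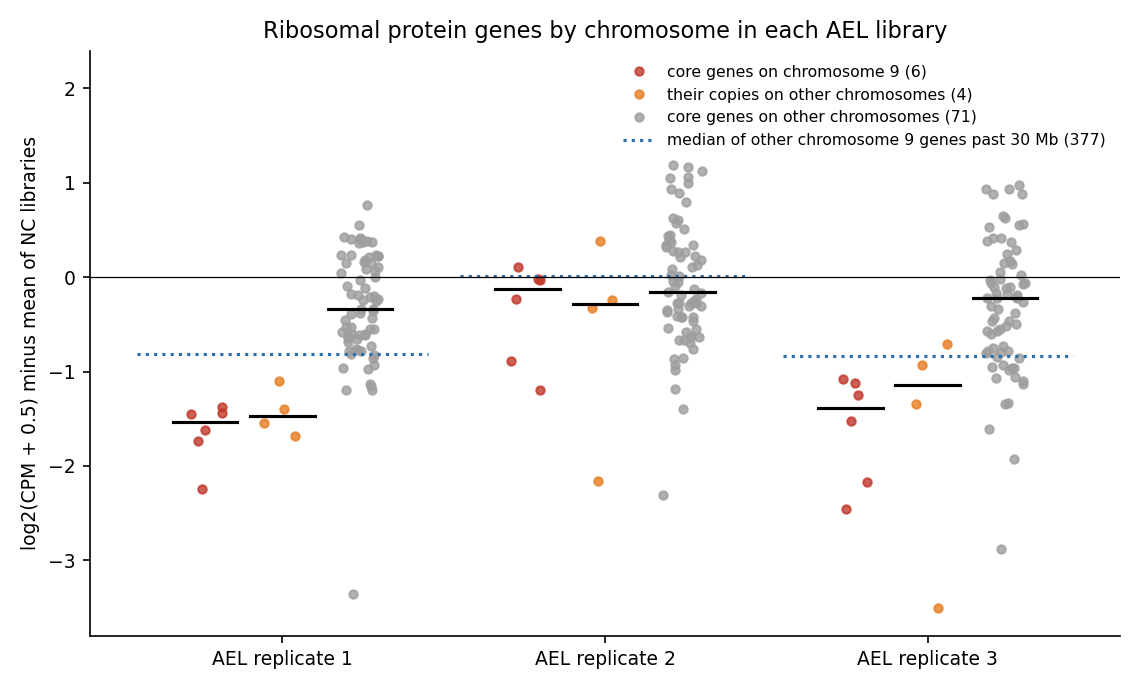
Deviation of each gene from the NC mean on the log2(CPM + 0.5) scale (vertical axis) in the AEL libraries (horizontal axis), for 6 core genes on chromosome 9, 4 copies of them on other chromosomes and 71 core genes elsewhere, with medians as bars and the median of 377 other chromosome 9 genes dotted. The 6 genes have medians of -1.54, -0.13 and -1.39 in AEL replicates 1, 2 and 3.

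Genes that work with the ribosomal proteins did not share 1 direction. Fau, which encodes a ubiquitin-like protein fused to Rps30, had a log2 fold change of -0.72 (edgeR adjusted p = 0.0509), and the scaffold Rack1 of -0.24 (edgeR adjusted p = 0.165). Other messengers with a 5' terminal oligopyrimidine tract, the element that ribosomal protein messengers carry, gave 6 lower (28.6%) and 3 higher (14.3%) of 21, with a median of -0.26, where 29.0% and 23.9% of all genes were called. The lower calls numbered 4 without AEL replicate 3, NC replicate 1 or NC replicate 2, and the higher calls 2, 1 and 0 without NC replicates 1, 2 and 3. Scaling by totals only gave 5 higher, as did quantile normalization. The lower ones with the lowest values were Vim, an intermediate filament gene (-2.49, edgeR adjusted p = 0.0377, and 0.0895 to 0.104 without AEL replicate 3 or any NC library), Tpt1 (-1.75, edgeR adjusted p = 0.00151) and Eef1b2, an elongation factor subunit (-0.88, edgeR adjusted p = 0.00729). The higher ones were Npm1, the nucleolar chaperone nucleophosmin, at 0.61, and the initiation factor genes Eif4b at 0.54 and Eif3e at 0.47 (edgeR adjusted p = 0.0182, 0.00798 and 0.0125). Each of these 3 lost its call without NC replicate 3 (edgeR adjusted p = 0.0704, 0.0515 and 0.0736).

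Chaperones and placement factors of ribosomal proteins were mostly higher in AEL. Of 18, edgeR called 14 (77.8%) higher and 0 lower, against 23.9% and 29.0% of all genes, and the median log2 fold change was 0.76. None was lower at an unadjusted p under 0.05 (0), by DESeq2 (0) or by limma (0). The 14 include Nacc1 (log2 fold change 0.59, edgeR adjusted p = 0.00559), which was listed but is not known as a factor of this kind. The higher calls numbered 7 without NC replicate 1 and 6 without NC replicate 3, fits in which those over all genes also fell, as given above. Tsr1, which accompanies the maturing small subunit, rose to 76.6, 77.9 and 132 CPM in AEL libraries, against 24.1, 26.1 and 25.1 CPM in NC (log2 fold change 1.93, SE 0.24, edgeR adjusted p = 0.00111). Grwd1, a chaperone of Rpl3, averaged 70.7 ± 20.4 CPM over AEL and 27.4 ± 3.22 CPM over NC libraries (SD, n = 3 each, log2 fold change 1.37, SE 0.24, edgeR adjusted p = 0.00339). Nle1, a factor of large subunit maturation, had 67.4, 66.2 and 96.9 CPM in AEL and 25.01, 33.66 and 32.35 CPM in NC (1.34, SE 0.21, edgeR adjusted p = 0.00237). In all 3 every AEL library exceeded every NC library, and AEL replicate 3 was the highest. Rpl3, the client of Grwd1, had 127, 168 and 122 CPM in AEL and 120, 105 and 102 CPM in NC, which did not pass (log2 fold change 0.35, edgeR adjusted p = 0.0985). With its copy added it stood at -0.01 (edgeR adjusted p = 0.955). The 4 chaperone genes not called were Bccip, Aamp, Pdcd2l and Ipo7, with log2 fold changes of -0.10, -0.03, 0.03 and 0.14.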

How the data were processed

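Poly-A RNA of 3 AEL and 3 NC samples was sequenced, per the labels' protocols. The authors deposited 1 table of raw, whole-number counts for each gene, whose library totals differ even though the file is called CPM. The submitters' processing notes list edgeR 3.32.1 and mm10 without saying what either was used for. Not given in the sources used here are aligner, counter and strand setting. Counts were tested with edgeR 4.0.16 (quasi-likelihood test, TMM scaling, no covariate, a filter of 1 CPM in at least 3 libraries, Benjamini-Hochberg adjustment over all 12427 genes tested). CPM values use totals multiplied by TMM factors (1.04 to 1.10 in AEL, 0.925 to 0.949 in NC), except the marker sums and values given for library totals alone, which use no TMM factor. The SE of a log2 fold change is its size divided by the square root of the F statistic.

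Genes were matched by symbol to GENCODE M21 (GRCm38), and every 50-base window of a member's transcript was looked up in all other transcripts, both strands. Copies of a gene were pseudogene, Gm or rt rows with at least 10% of windows in it. Deviations of a library are log2(CPM + 0.5) minus the NC mean, and chromosome medians leave out genes whose mean is under 10 CPM. At these depths 3 counts equal 0.302 to 0.367 CPM, which covers counting error only. The members, lists and named-gene rule were chosen with earlier results of these data known. Named genes are 18 fixed ones, the 8 lowest and 8 highest core genes, the 3 widest within AEL and up to 3 passing genes per list and direction; the copies, Rpl8, Rpl3 and other genes named beside them were chosen after their values were seen. Alternatives used DESeq2 1.42.0, limma 3.58.1, other scalings, no filter, the replicate number as a block and each library left out. The replicate numbers do not pair the samples. Results of some genes are not reported here.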

Additional observations from a re-analysis of the deposited data

How the results depend on the processing

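The number of ribosomal protein genes called lower was 25 as reported and stayed between 18 and 33 in all 17 other settings, whereas the number called higher (2) depended on them. It was 9 with library totals alone, 12 with quantile normalization, 4 with limma on log2(CPM + 5), 1 with the replicate block, and 0 to 11 with 1 library left out. The replicate numbers did not pair the libraries (correlations of deviations 0.08, -0.02 and -0.03), so the block says nothing of a weaker effect. The median log2 fold change of the 86 genes was -0.37 as reported, -0.19 with totals alone, -0.12 with quantile normalization and -0.43 to -0.19 with 1 library left out. The median of all genes, -0.05 as reported, reversed to 0.14 with totals alone and 0.11 with quantile normalization, and lay between -0.0354 and 0.0038 with 1 library left out, above 0 without AEL replicate 1 or any NC library. The log2 ratio of summed CPM was -0.68 as reported, -0.35 after quantile normalization and -0.79 to -0.52 with 1 library left out. Calls over all genes numbered 1780 to 3834 lower and 1672 to 3253 higher with 1 library left out. The cause of these shifts was not tested. Of 27 called members, 11 kept their call in all 17 other settings, including Rplp1, Rpl41, Rps20 and Rps9. Rps4l was not tested where an NC library was left out, because 2 libraries at 1 CPM or more do not pass the filter. Adding copies to their genes was chosen after seeing the data. Genes under 10 CPM in both groups, among them Rpl24, Rpl35a, Rpl38, Rps13, Rps27 and Rps28, rest on few counts.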
